A study of Caenorhabditis elegans with 30 samples.

Results

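The *spe* genes (spermatogenesis defective) and the *fer* genes (fertilization defective) of *C. elegans* were followed across an exposure of whole nematodes to 3 thymidine analogues. Every gene whose name is *spe-* or *fer-* followed by a number was taken, which gave 35 of the 46726 genes counted. Of these, 30 carried the name in the Ensembl annotation and 5 only in the newer RefSeq naming at the same genomic position (*spe-21*, *spe-40*, *spe-55*, *spe-57* and *spe-58*, listed in Ensembl as *dhhc-5*, Y37E11AR.7, C09B9.4, R03D7.8 and F52F12.5). The members lie on chromosome I (14 genes), IV (11), V (5), III (3) and II (2) of the WBcel235 build.

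Hermaphrodites of *C. elegans* make sperm for a limited time in the last larval stage (L4) and then switch the germline to oocytes. Genes of the *spe* and *fer* series were found as mutants whose sperm are not made, do not become motile or do not fertilize. Developing spermatocytes pack the major sperm proteins (MSP, the cytoskeletal proteins of the crawling sperm) into fibrous body-membranous organelles. Transcription has stopped before sperm activation, so that activation and fertilization run on proteins already made. Some of the encoded proteins also act in other cells, such as subunits of the proton pump and factors of vesicle traffic.

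Exposure began at the L4 stage of an age-matched population raised on bacteria, and lasted 24h or 72h. The plates held 100μM AZT (zidovudine, with an azido group), 100μM d4T (stavudine, with a double bond) or 100μM FLT (alovudine, with a fluorine), 0.033% DMSO as the solvent control, or no addition. Each of the 10 groups had 3 biological replicates of whole-worm RNA, from which eggs and bacteria had been removed on a mesh. The methods list N2 Bristol as the wild-type strain, and the labels name no mutation or transgene. In whole-worm RNA, fewer cells of a type and less RNA per cell cannot be told apart.

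Total counts on genes were 11.3M to 30.6M per library (median 24.0M), of which the members took 2549 to 7027. A level is given as CPM, counts per 1M after TMM scaling, and a gene was called changed where the p of edgeR's quasi-likelihood test, adjusted over the 16048 genes with enough counts, was under 0.01. Every exposure had its own sequencing lane, and the FLT lane was on a second flow cell, so that lane and exposure cannot be told apart. The second library of d4T at 24h stood apart from its group. Its log2 levels correlated at 0.987 with the AZT libraries of 24h and at most at 0.933 with the other d4T libraries of 24h, while these correlated with each other at 0.987. Results that use d4T at 24h are given with and without it. Ribosomal RNA genes took 5.73% of the counts in the first AZT library of 72h and 4.94% in the first d4T library of 24h, against a median of 0.649% over the libraries.

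Most members were counted at very low levels. Per kb of exon, the mean over the 30 libraries was highest for *spe-39* (43.9 CPM per kb) and *spe-48* (40.8), followed by *spe-5* (10.3) and *spe-44* (10.2). Their levels per kb exceeded those of 77.5, 76.0, 54.4 and 54.2% of all genes tested. *spe-39* encodes a protein that binds the vesicle-sorting factor VPS33, *spe-5* a B subunit of the vacuolar proton ATPase, and *spe-44* a SAND-domain transcription factor of the spermatogenesis programme. *spe-6* (2.98 CPM per kb), *spe-29* (2.63), *spe-15* (1.83), *spe-41* (1.36) and *spe-18* (1.03) followed, and the other 26 members stayed below 1 CPM per kb. There were 23 members below the 20th percentile of the genes tested.

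**Figure D1:**
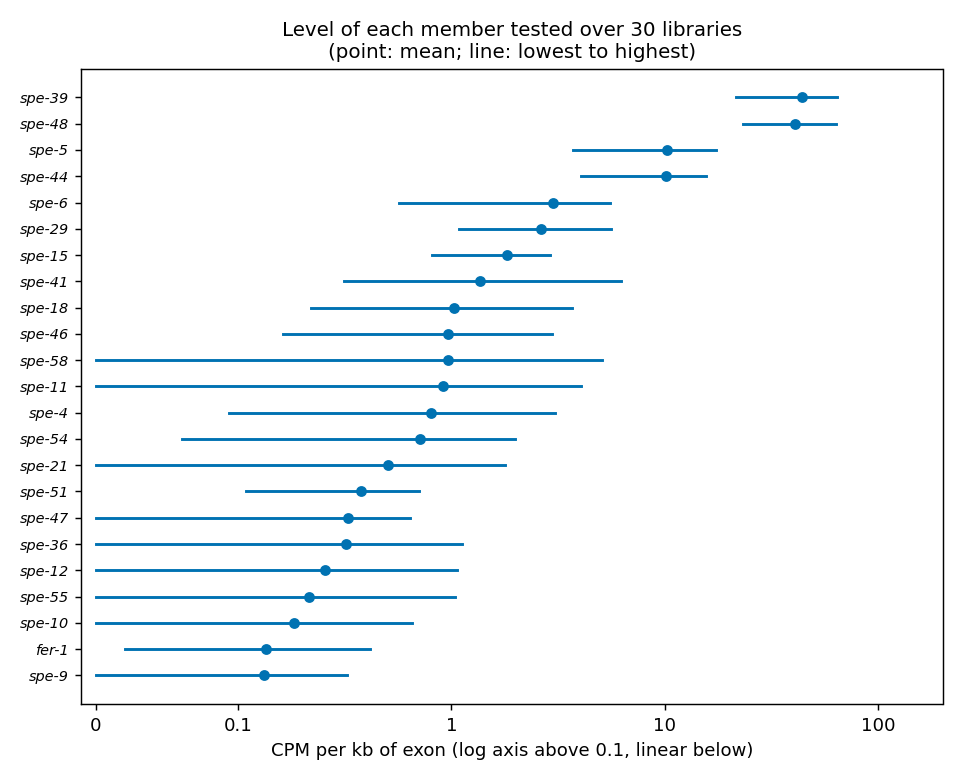
Mean level of the 23 members tested over 30 libraries, in CPM per kb of exon, with a line from the lowest to the highest library (log axis above 0.1). The levels run from 43.9 for *spe-39* to 0.133 for *spe-9*.

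Of the 35 members, 14 had a count in all 30 libraries and 23 had enough counts to be tested. The 12 without enough counts include the tyrosine kinase gene *spe-8* and the partners *spe-19* and *spe-27* of its activation pathway. They also include *spe-38*, *spe-42* and *spe-49*, which encode membrane proteins used in fertilization, and *spe-40*, *spe-43* and *spe-57*. *spe-26*, which encodes a kelch-repeat protein of spermatocytes, had no count in any of the 30 libraries. The filter asks for counts in some group, so that the 23 tested are not all members, and shares of them are not shares of the family. Of the 23, 7 were called in a comparison of an analogue with DMSO and 15 in at least 1 of 22 comparisons between analogues, controls and times, which leave out those of the analogues with unexposed nematodes. The shares of all genes called in these sets of comparisons are not given here, so that the counts are no result about the members. In AZT against DMSO at 72h alone, 27.2% of all genes rose and 21.6% fell.

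The 4 abundant members together held 67.0 to 92.6% of the counts of the family in every library. The library with their lowest sum was one of AZT at 72h and that with the highest one of DMSO at 72h. The sum was 184 to 206 CPM in unexposed nematodes, 149 to 169 with DMSO, 195 to 218 with AZT and 107 to 140 with FLT at 24h. For d4T at 24h the libraries split, with 213 CPM in the second and 92.5 and 109 in the others. At 72h it was 159 to 177 CPM in unexposed nematodes, 237 to 251 with DMSO, 88.3 to 127 with AZT, 132 to 140 with d4T and 197 to 236 with FLT.

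**Figure D2:**
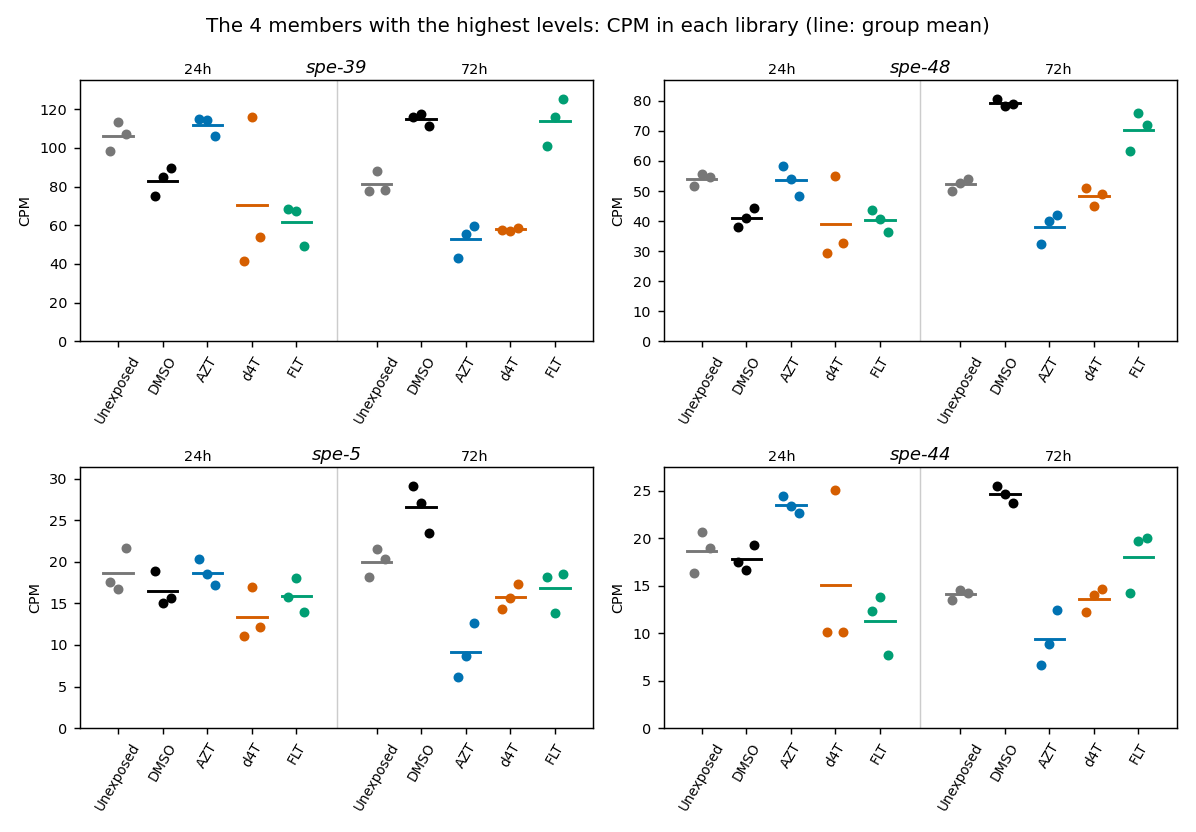
CPM of *spe-39*, *spe-48*, *spe-5* and *spe-44* in each of the 30 libraries, with a line at each group mean of 3 libraries. With AZT at 72h all 4 genes lie below every DMSO library of that time, and the second d4T library of 24h lies above the other d4T libraries of 24h in each panel.

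After 72h, AZT lowered the abundant members and raised 2 scarce ones against DMSO. Of 23 members tested, 4 fell (*spe-39*, *spe-48*, *spe-5* and *spe-44*), where 21.6% of all genes tested fell. The members that rose were *spe-4* and *spe-29*, where 27.2% of all genes rose. The median log2 fold change was 0.45 over the members and 0.36 over all genes tested.

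*spe-5* (chromosome I, 5101665 to 5103476, 4 exons) was at 29.1, 27.1 and 23.5 CPM with DMSO at 72h and at 6.20, 8.62 and 12.7 CPM with AZT. The groups did not overlap, and the mean went from 26.6 ± 2.85 to 9.17 ± 3.27 CPM (SD, n = 3 each). It fell by 1.53 on the log2 scale (standard error 0.21, adjusted p = 2.16e-06), and the call was kept in 13 of 13 alternative analyses, also against unexposed nematodes (-1.13). *ift-20* shares 68 exonic bases with it on the other strand, at 1.12 ± 0.0861 CPM (SD, n = 3) with AZT and 0.532 ± 0.140 CPM (SD, n = 3) with DMSO.

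The transcription factor gene *spe-44* (chromosome IV, 12452063 to 12454215, 6 exons) was at 25.5, 24.7 and 23.7 CPM with DMSO and at 6.63, 8.90 and 12.5 CPM with AZT. It fell by 1.40 on the log2 scale (standard error 0.27, adjusted p = 0.000100). Unexposed nematodes held 13.5, 14.5 and 14.3 CPM, above the AZT libraries by a smaller margin. Against them *spe-44* was at -0.60 (adjusted p = 0.0626) and did not pass.

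The trafficking gene *spe-39* (chromosome V, 6785451 to 6787864, 8 exons) was at 116, 117 and 111 CPM with DMSO and at 43.2, 55.7 and 59.8 CPM with AZT. It fell by 1.12 on the log2 scale (standard error 0.23, adjusted p = 0.000179). Against unexposed nematodes it was at -0.62 (adjusted p = 0.0249). *spe-48* (chromosome I, 1950594 to 1958527, 7 exons) was at 80.5, 78.3 and 78.9 CPM with DMSO and at 32.3, 40.1 and 42.1 CPM with AZT. The *spe-48* fold change was -1.05 (standard error 0.16, adjusted p = 1.13e-05) and -0.45 against unexposed nematodes (adjusted p = 0.0251). All AZT libraries of 72h lay below all DMSO and all unexposed libraries of 72h for these 4 genes. The share of all genes that separate in this way is not given here. With 1 library left out in turn, the 4 calls against DMSO were all kept.

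Markers of the female germline moved in the same libraries. Of 15 oocyte and eggshell genes, 12 fell with AZT at 72h (median -1.43), and their summed level was 4405 to 5534 CPM with AZT and 12723 to 12858 with DMSO. Among 10 genes of germline mitosis and meiosis, 8 fell (median -1.23). Of 9 larval moult genes tested, 8 rose (median 2.65), with summed levels of 403 to 515 CPM against 64.3 to 79.9. Against unexposed nematodes of 72h, 6 of 15 oocyte and eggshell genes fell with AZT (median -1.29). So did 6 of 10 genes of germline mitosis and meiosis (median -0.99), and 8 of 9 moult genes rose (median 2.64). None of the genes of these 3 lists was at 0 in the DMSO or AZT group except 1 moult gene in each. The part of the germline or of larvae in the changes of *spe-5*, *spe-39*, *spe-44* and *spe-48* was not tested.

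With d4T at 72h, 3 of the same 4 genes fell. *spe-39* fell from 115 ± 3.18 to 57.8 ± 0.873 CPM (SD, n = 3 each), with libraries at 57.5, 57.1 and 58.8 CPM. That is a fall by 0.99 on the log2 scale (standard error 0.22, adjusted p = 0.00258). *spe-48* libraries were at 51.2, 44.96 and 48.99 CPM, lower by 0.71 on that scale (standard error 0.16, adjusted p = 0.00276). For *spe-5* they were at 14.3, 15.7 and 17.4 CPM, with -0.75 (standard error 0.20, adjusted p = 0.00911). *spe-44* was at -0.85 (adjusted p = 0.0197) and did not pass. For each of these genes no d4T library of 72h overlapped the DMSO libraries of 72h. The share of all genes without such overlap is not given here. In the same comparison 4 of 9 moult genes tested rose (median 1.36), with summed levels of 165 to 232 CPM against 64.3 to 79.9 with DMSO. Of 15 oocyte and eggshell genes 1 fell (median -0.67), and of 23 MSP genes 8 fell (median -3.13). Against unexposed nematodes of 72h, 0 of the MSP genes were called with d4T (median 0.63). The part of these lists in the changes was not tested.

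Against DMSO at 72h, 3 of 23 members fell with d4T, where 5.86% of all genes fell, and none rose, where 5.82% rose (2 members above 0 and 7 below 0 at an unadjusted p under 0.05, DESeq2 0 and 4). The medians were -0.21 over the members and 0.17 over all genes tested. These calls were close to the threshold. None of the 3 was called without DMSO replicate 1, d4T replicate 2 or d4T replicate 3 of 72h, and 1 was called without each of the other libraries. For *spe-39* the adjusted p was then 0.0104, 0.0154 and 0.0106, with log2 fold changes of -1.03, -1.02 and -1.05. Against unexposed nematodes no member passed with d4T at 72h, where 0.0997% of all genes rose and 0.106% fell (0 members above 0 and 1 below 0 at an unadjusted p under 0.05, DESeq2 0 and 0).

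FLT at 72h raised *spe-41*, and none of the 4 abundant genes was called. *spe-41* encodes a TRPC-family calcium channel of sperm, also known as TRP-3, that acts at fertilization (chromosome III, 3439011 to 3444210, 14 exons). Its counts were 43, 46 and 44 with DMSO at 72h and 147, 144 and 295 with FLT. In CPM these are 1.81, 1.95 and 1.64 with DMSO and 9.58, 12.2 and 16.9 with FLT. The 3 FLT libraries lay above all other 27 libraries, in which *spe-41* was at 0.855 to 6.12 CPM. It rose by 2.84 on the log2 scale (standard error 0.36, adjusted p = 5.64e-06) and by 2.52 against unexposed nematodes (adjusted p = 1.08e-05), and the call was kept in 13 of 13 alternatives.

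No other member was called with FLT at 72h, so that 1 of 23 rose, where 4.52% of all genes rose, and none fell, where 3.54% fell (3 members below 0 at an unadjusted p under 0.05, DESeq2 1). *spe-39* was at -0.01 (95% interval -0.47 to 0.45), *spe-48* at -0.17 (-0.50 to 0.17) and *spe-44* at -0.45 (-0.99 to 0.09). *spe-5* was at -0.65 (adjusted p = 0.0275), with all FLT libraries below the DMSO libraries. *spe-58*, a small gene of 583 exonic bases, was at 0.657 ± 0.0931 CPM with DMSO and 0.0626 ± 0.0653 CPM with FLT (SD, n = 3 each), from 3 counts over the FLT libraries. That is 9.81 times more with DMSO (95% counting interval 3.16 to 49.2, exact), with an adjusted p of 0.0161 that did not pass. Against unexposed nematodes *spe-41* was again the only member called with FLT at 72h, where 5.96% of all genes rose and 6.51% fell.

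Few of the other sperm genes were called in the same comparison. Of 23 MSP genes tested, none rose with FLT at 72h and 3 fell (median -3.04), with summed MSP levels of 3.04 to 4.30 CPM against 18.99 to 48.9 with DMSO. Against unexposed nematodes of 72h, 0 of them were called with FLT (median 0.75). Of 25 other sperm genes tested, 1 rose and 3 fell against DMSO (median -2.25), and 2 rose and 1 fell against unexposed nematodes (median -0.04). The one that rose against DMSO, *alg-3*, encodes an Argonaute of spermatogenesis, and it rose by 4.89 on the log2 scale (standard error 0.76, adjusted p = 7.10e-05). *alg-3* was also higher than in unexposed nematodes, by 6.44 (standard error 0.84, adjusted p = 4.22e-06).

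**Figure D3:**
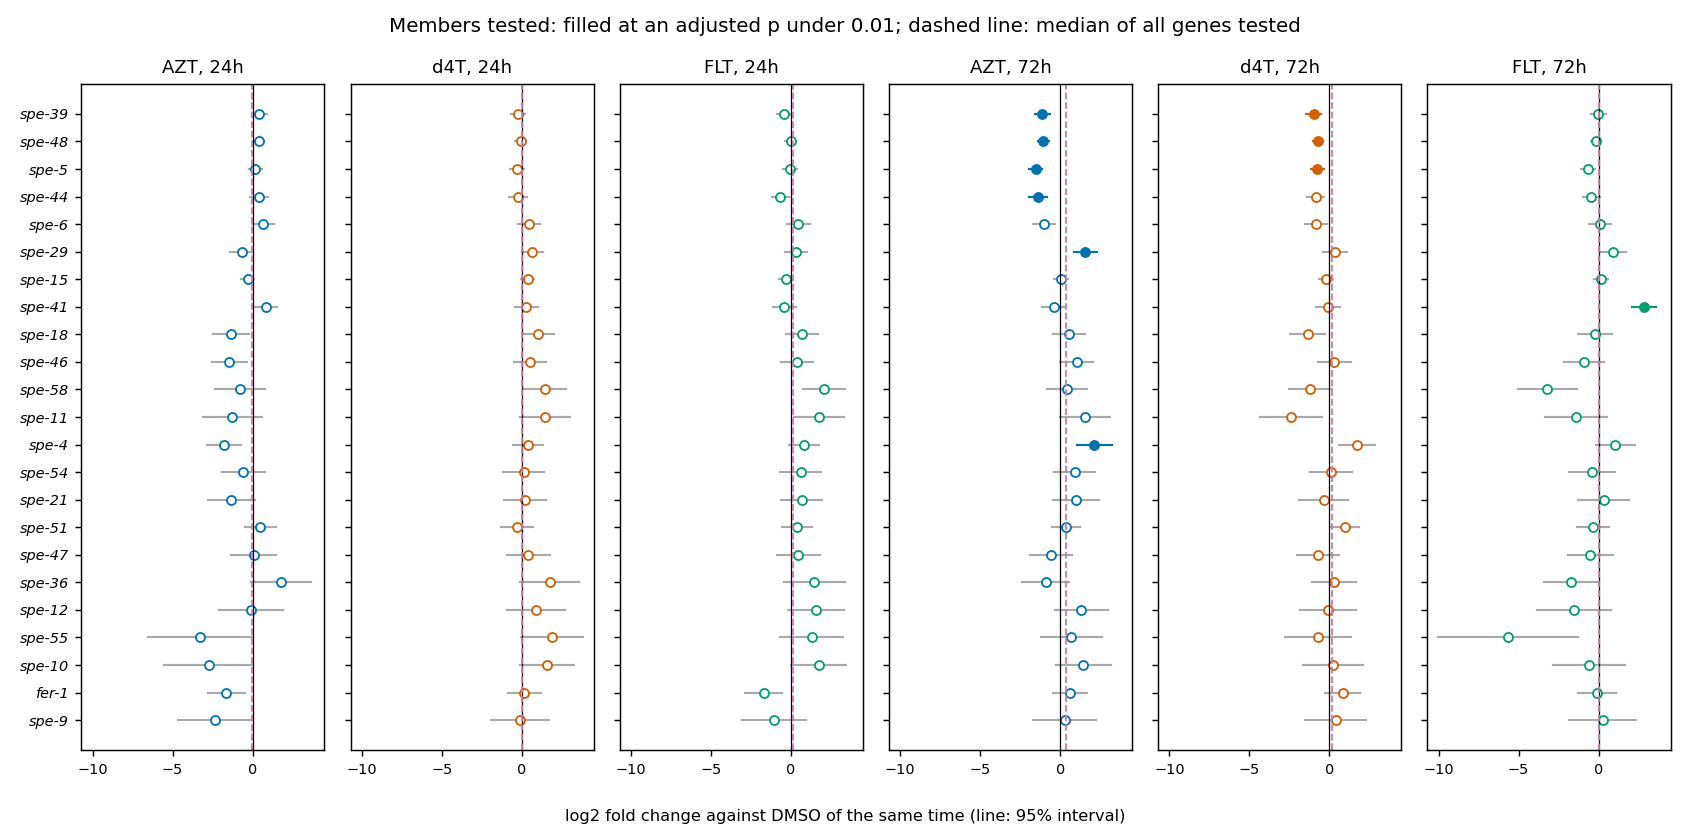
Log2 fold change against DMSO of the same time, with its 95% interval, for the 23 members tested, ordered by their level per kb. Filled points passed an adjusted p of 0.01, and the dashed line is the median of all genes tested. The filled points are 6 with AZT, 3 with d4T and 1 with FLT at 72h, and none at 24h.

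Of the scarce members tested, *spe-4* and *spe-29* rose with AZT at 72h. *spe-4*, which encodes a presenilin-family protease of the fibrous body-membranous organelles (chromosome I, 7454660 to 7456953, 8 exons), was at 0.379, 0.338 and 0.149 CPM with DMSO at 72h. With AZT it was at 1.67, 0.902 and 1.24 CPM, all above the DMSO libraries, a rise by 2.14 on the log2 scale (standard error 0.53, adjusted p = 0.00141). DMSO nematodes of 72h held 4 to 9 counts of it per library. The call was lost without DMSO replicate 3 (1.81, adjusted p = 0.0132) or AZT replicate 1 of 72h (1.86, adjusted p = 0.0101), and against unexposed nematodes it was at 1.12 (adjusted p = 0.0569).

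*spe-29*, a small membrane protein gene of the *spe-8* activation pathway, rose from 0.377 ± 0.00451 to 1.13 ± 0.297 CPM with AZT at 72h (SD, n = 3 each). Its libraries were at 0.379, 0.381 and 0.372 CPM with DMSO and at 1.28, 0.784 and 1.31 CPM with AZT. The rise was 1.57 on the log2 scale (standard error 0.36, adjusted p = 0.000596), and against unexposed nematodes *spe-29* was at 0.69 (adjusted p = 0.0849). *spe-29* (chromosome IV, 9933880 to 9934322, 343 exonic bases) shares 117 of its exonic bases with *gon-1* on the other strand. *gon-1* rose from 5.10 ± 0.501 to 23.6 ± 2.05 CPM (SD, n = 3 each), by 2.21 on the log2 scale. Whether the counting used the strand is not given in the sources used here, and reads of *spe-29* and *gon-1* in the shared bases may then not be told apart.

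Among the scarce members, the group mean of *spe-11* was highest with FLT at 24h, d4T at 24h and AZT at 72h (2.53, 1.98 and 1.95 CPM). That of *spe-46* was highest with d4T and FLT at 24h (2.01 and 1.86 CPM), followed by DMSO at 24h (1.41 CPM) and AZT at 72h (1.32 CPM). *spe-11*, whose protein is brought to the embryo by sperm (chromosome I, 5330578 to 5332169, 7 exons), was at 1.28, 2.63 and 1.93 CPM with AZT at 72h and at 3.96, 1.58 and 2.04 CPM with FLT at 24h. The d4T libraries of 24h were at 3.39, 0.166 and 2.40 CPM, the second being low. In unexposed nematodes *spe-11* was at 0 to 0.427 CPM at both times, and with d4T and FLT at 72h at 0.0678 to 0.326 CPM.

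*spe-46*, which acts in the timing of sperm activation (chromosome I, 9056293 to 9057824, 6 exons), was at 1.39, 1.18 and 1.39 CPM with AZT at 72h and at 2.39, 1.73 and 1.45 CPM with FLT at 24h. In the d4T libraries of 24h it was at 3.13, 0.277 and 2.63 CPM. Like *spe-11*, *spe-46* was low in the second of these libraries. The summed MSP level was 47.1 to 65.1 CPM with AZT at 72h and 40.1 to 76.2 CPM with FLT at 24h. For d4T at 24h it was 76.5 and 63.2 CPM in the first and the third library and 4.99 CPM in the second. It was 0.621 to 6.66 CPM over the unexposed libraries. With DMSO at 72h it was 18.99 to 48.9 CPM, reaching the range of the AZT libraries, while *spe-11* was at 0.423 to 0.781 CPM and *spe-46* at 0.592 to 0.757 CPM there. Of the 31 MSP genes, 5 to 8 had no count in a group. The part of spermatocytes or sperm in the levels of *spe-11* and *spe-46* was not tested.

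**Figure D4:**
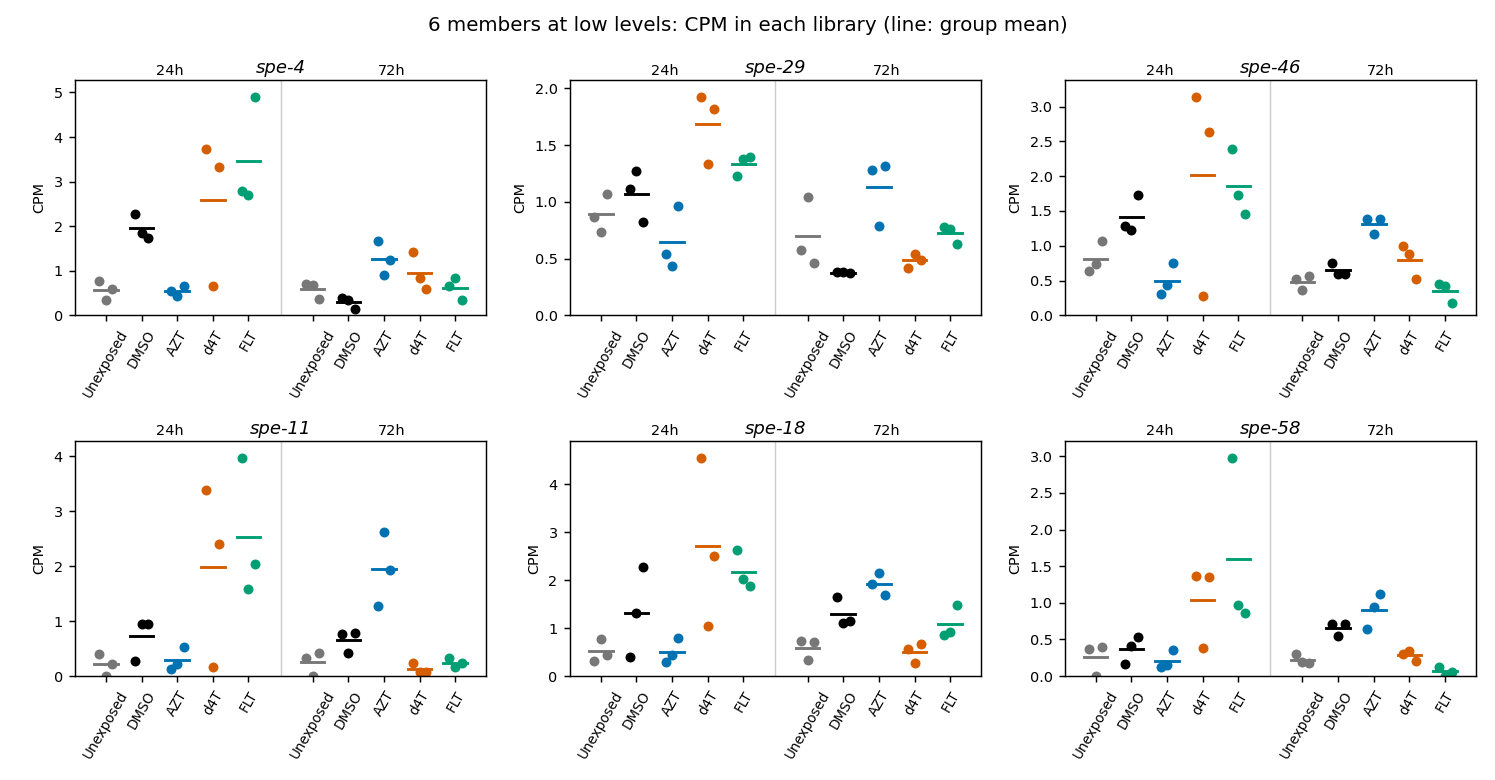
CPM of *spe-4*, *spe-29*, *spe-46*, *spe-11*, *spe-18* and *spe-58* in each library, with a line at each group mean of 3 libraries. *spe-18* and *spe-58* were added after their values were seen. The second d4T library of 24h is the lowest of its group in all 6 panels, and *spe-11* lies at 1.28 to 2.63 CPM in the AZT libraries of 72h.

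At 24h no member was called in a comparison of an analogue with DMSO. With AZT, 1.07% of all genes rose and 9.15% fell (2 members above 0 and 5 below 0 at an unadjusted p under 0.05, DESeq2 0 and 1), and the median was -0.57 over the members and -0.02 over all genes. *spe-4* was nearest, at 0.544, 0.437 and 0.658 CPM with AZT and 2.28, 1.84 and 1.73 CPM with DMSO, at -1.80 on the log2 scale (standard error 0.51, adjusted p = 0.0132). The groups did not overlap for this gene. *spe-39* was at 115, 114 and 106 CPM with AZT and 74.9, 84.8 and 89.6 CPM with DMSO, also without overlap, at 0.43 (standard error 0.22, adjusted p = 0.142).

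With FLT at 24h, 5.74% of all genes rose and 9.39% fell (3 members above 0 and 2 below 0 at an unadjusted p under 0.05, DESeq2 1 and 1). The median was 0.45 over the members and 0.15 over all genes. *fer-1*, which encodes the ferlin that fuses the membranous organelles with the plasma membrane during activation, was at 0.410 ± 0.179 CPM with FLT and 1.38 ± 1.07 CPM with DMSO (SD, n = 3 each). It was at -1.70 on the log2 scale (adjusted p = 0.0250). Without DMSO replicate 3 of 24h, *spe-10* was called higher with FLT (adjusted p = 0.00954), with 12, 15 and 3 counts against 0 and 1 in the remaining DMSO libraries.

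With d4T at 24h, 4.07% of all genes rose and 2.24% fell (2 members above 0 and 0 below 0 at an unadjusted p under 0.05, DESeq2 0 and 0), with medians of 0.41 and 0.02. This depended on the library that stood apart. *spe-39* was at 41.7, 116 and 53.7 CPM, *spe-44* at 10.2, 25.1 and 10.1 CPM and *spe-48* at 29.5, 54.9 and 32.6 CPM in the 3 libraries. Without the second library, these 3 of 25 members tested fell against DMSO, where 22.2% of all genes fell, and none rose, where 14.7% rose. The log2 fold changes were then -0.82 for *spe-39* (standard error 0.15, adjusted p = 0.000151), -0.84 for *spe-44* (standard error 0.22, adjusted p = 0.00262) and -0.43 for *spe-48* (standard error 0.13, adjusted p = 0.00786).

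The solvent itself went with differences between the controls. At 24h *spe-15*, the gene of a myosin VI that sorts components out of the budding spermatid, was at 3.95, 3.16 and 4.51 CPM in unexposed nematodes and 5.95, 8.35 and 8.55 CPM with DMSO. It was called higher with DMSO by 0.98 (standard error 0.21, adjusted p = 0.00156), the only one of 23 members, where 9.01% of all genes rose and 3.56% fell. The call was lost without unexposed replicate 2 of 24h (adjusted p = 0.0150), and without unexposed replicate 3 *fer-1* was called too (2.89, adjusted p = 0.00240). At 72h *spe-48* was called higher with DMSO by 0.60 (standard error 0.16, adjusted p = 0.00906), from 49.9, 52.6 and 54.1 CPM to 80.5, 78.3 and 78.9 CPM, where 5.71% of all genes rose and 6.01% fell. This call was lost without each of the 6 libraries in turn (adjusted p up to 0.0515), although the groups lay apart.

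MSP genes differed between the controls as well. Of the 23 tested, 3 were higher with DMSO at 24h (median 2.52) and 20 at 72h (median 3.82). The comparisons with DMSO and with unexposed nematodes share the exposed libraries, and their values are set side by side here.

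Against unexposed nematodes at 24h, 7 members were higher with d4T and none lower, where 19.5% of all genes rose and 12.7% fell. They are *fer-1*, *spe-4*, *spe-10*, *spe-11*, *spe-15*, *spe-18* and *spe-55*. With FLT, *spe-4*, *spe-10*, *spe-11*, *spe-18*, *spe-55* and *spe-58* were higher and *spe-39* was lower, where 17.2% of all genes rose and 12.3% fell. *spe-10* encodes a palmitoyltransferase of the fibrous body-membranous organelles and *spe-18* a protein of fibrous body assembly. *spe-18* was at 0.515 ± 0.238 CPM in unexposed nematodes, 2.71 ± 1.75 CPM with d4T and 2.18 ± 0.392 CPM with FLT (SD, n = 3 each). Without the second d4T library, 10 of 25 members were higher with d4T than in unexposed nematodes, where 29.4% of all genes were, and *spe-5*, *spe-39*, *spe-44* and *spe-48* were lower, where 27.5% were. The last comparison was added after that library had been seen to stand apart. *spe-39* was then at -1.18 (standard error 0.15, adjusted p = 3.10e-07). *spe-55* had no count in the unexposed libraries of 24h, and with all libraries it was at least 20.5-fold higher with d4T and 12.6-fold higher with FLT than 3 counts over that group.

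Between AZT at 24h and unexposed nematodes no member was called, where 0.224% of all genes rose and 0.48% fell (1 member above 0 and 0 below 0 at an unadjusted p under 0.05, DESeq2 0 and 0), and the median over the members was 0.05. *spe-44* was at 0.33 (95% interval -0.20 to 0.87) and *spe-39* at 0.07 (-0.39 to 0.53). With AZT at 72h, *spe-11* and *spe-18* were higher and *spe-5* lower, where 18.6% of all genes rose and 13.2% fell. *spe-11* was at 2.92 (standard error 0.82, adjusted p = 0.00562) against unexposed nematodes. Of the 23 MSP genes tested, 21 were higher than in unexposed nematodes with d4T at 24h (median 3.65), 21 with FLT at 24h (median 3.94) and 23 with AZT at 72h (median 4.51), and their part in the members' differences was not tested. Against DMSO, 0 of the MSP genes were called with d4T at 24h (median 1.31), FLT at 24h (median 1.42) or AZT at 72h (median 0.72).

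The analogues were compared in pairs at the same dose and time, in 6 comparisons. Each p was adjusted over all genes tested within its comparison. At 24h AZT differed at 6 members from d4T and at 9 from FLT, and d4T and FLT at 0. At 72h the counts were 3, 10 and 2. At 24h the 6 members that differed from d4T were all lower with AZT, where 20.0% of all genes were lower and 9.49% higher (4 members above 0 and 11 below 0 at an unadjusted p under 0.05, DESeq2 0 and 10). They are *spe-4*, *spe-10*, *spe-18*, *spe-29*, *spe-46* and *spe-55*. *spe-4* was at -2.21 (standard error 0.51, adjusted p = 0.00206). These calls were all lost without AZT replicate 1 or 2 or d4T replicate 1 or 3 of 24h, where the adjusted p of *spe-4* was 0.0139, 0.0142, 0.0205 and 0.0197. Without the second d4T library, 10 of 25 members were lower with AZT, where 30.9% of all genes were, and 4 higher (*spe-39*, *spe-48*, *spe-44* and *spe-5*), where 31.0% were. *spe-39* was then at 1.28 (standard error 0.16, adjusted p = 1.08e-07). With all libraries, 14 of 23 MSP genes (median -3.10) and 16 of 25 other sperm genes were lower with AZT in this comparison, and their part was not tested.

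Between AZT and FLT at 24h, *spe-39*, *spe-41* and *spe-44* were higher with AZT, where 17.4% of all genes were, and *spe-4*, *spe-10*, *spe-11*, *spe-18*, *spe-46* and *spe-58* were lower, where 23.1% were. *spe-44* was at 24.5, 23.4 and 22.7 CPM with AZT and 12.3, 13.8 and 7.73 CPM with FLT, a difference of 1.06 (standard error 0.27, adjusted p = 0.00196). *spe-4* differed by -2.63 (standard error 0.51, adjusted p = 0.000222) and was called in 12 of 12 alternatives. Without AZT replicate 1 of 24h, 2 of the 9 calls were made. The call of *spe-44* was lost without FLT replicate 3 of 24h (0.94, adjusted p = 0.0169). In this comparison all 15 oocyte and eggshell genes (median 2.21) and 7 of 10 genes of germline mitosis and meiosis were higher with AZT, and 18 of 23 MSP genes (median -3.14) and 17 of 25 other sperm genes were lower. Their part was not tested.

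d4T and FLT at 24h differed at no member, where 4.38% of all genes were higher with d4T and 1.45% lower (2 members above 0 and 0 below 0 at an unadjusted p under 0.05, DESeq2 1 and 0). *spe-39* was at 0.19 (95% interval -0.27 to 0.65), *spe-44* at 0.42 (-0.13 to 0.96) and *spe-11* at -0.33 (-1.80 to 1.14). Without the second d4T library, *spe-15* (0.81, adjusted p = 0.00384) and *fer-1* (2.11, adjusted p = 0.00564) were higher with d4T, where 4.39% of all genes were, and none was lower, where 2127 of 16367 genes were.

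At 72h *spe-5* was lower with AZT than with d4T by 0.78 on the log2 scale (standard error 0.21, adjusted p = 0.00759). *spe-11* was higher by 3.96 (standard error 0.91, adjusted p = 0.00326) and *spe-18* by 1.93 (standard error 0.52, adjusted p = 0.00923). Of all genes, 8.05% were higher and 3.98% lower with AZT. None of these calls was kept without d4T replicate 1, 2 or 3 or AZT replicate 2 of 72h, where the adjusted p of *spe-5* was 0.0172, 0.0179, 0.0348 and 0.0296. For *spe-39* AZT and d4T differed by -0.13 (95% interval -0.59 to 0.33). Of 23 MSP genes 22 were higher with AZT (median 3.74), as were 14 of 25 other sperm genes, and their part in the differences of *spe-11* and *spe-18* was not tested.

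Against FLT at 72h, *spe-5*, *spe-6*, *spe-39*, *spe-41*, *spe-44* and *spe-48* were lower with AZT, where 18.3% of all genes were, and *spe-11*, *spe-46*, *spe-55* and *spe-58* higher, where 22.2% were. *spe-6*, which encodes a casein kinase 1-like kinase, was at 2.68 ± 0.226 CPM with AZT and 5.82 ± 1.14 CPM with FLT (SD, n = 3 each). *spe-55* had no count with FLT at 72h and was at least 6.55-fold higher with AZT than 3 counts over that group. *spe-41* differed by -3.23 (standard error 0.37, adjusted p = 5.50e-07), *spe-39* by -1.11 (standard error 0.23, adjusted p = 0.000321) and *spe-48* by -0.88 (standard error 0.16, adjusted p = 0.000132). These 3 calls were kept in 12 of 12 alternatives, while 4 of the 10 were made without AZT replicate 1 of 72h. Of 23 MSP genes 21 were higher with AZT (median 3.77) and of 15 oocyte genes 7 were lower (median -1.19), and their part was not tested.

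*spe-39* and *spe-41* were lower with d4T than with FLT at 72h, where 5.43% of all genes were, and no member was higher, where 5.76% were (5 members above 0 at an unadjusted p under 0.05, DESeq2 0). The difference was -2.95 for *spe-41* (standard error 0.36, adjusted p = 2.13e-06), called in 12 of 12 alternatives. It was -0.98 for *spe-39* (standard error 0.23, adjusted p = 0.00250), a call lost without any d4T library or without FLT replicate 2 or 3 of 72h.

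The members called between 24h and 72h were not the same in each exposure, which alone does not show that their courses differed. In unexposed nematodes only *spe-15* was called, higher at 72h by 0.83 (standard error 0.21, adjusted p = 0.00355), where 8.75% of all genes rose and 8.94% fell. This call was lost without unexposed replicate 1 or 2 of 24h or replicate 1 of 72h, where its adjusted p was 0.0122, 0.0248 and 0.0177. Without replicate 3 of 24h, *fer-1*, *spe-9* and *spe-36* were called too. With DMSO *spe-5* and *spe-48* rose, where 13.9% of all genes did, and *spe-4* and *spe-29* fell, where 19.2% did. *spe-4* was at -2.75 (standard error 0.53, adjusted p = 0.000180) and *spe-48* at 0.95 (standard error 0.16, adjusted p = 4.85e-05), both called in 12 of 12 alternatives. 2 of these 4 calls were made without DMSO replicate 2 of 24h.

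With AZT, *spe-5*, *spe-39*, *spe-41* and *spe-44* fell from 24h to 72h, where 24.1% of all genes fell, and *spe-10*, *spe-11* and *spe-18* rose, where 26.5% rose. *spe-44* went from 23.5 ± 0.901 to 9.33 ± 2.95 CPM (SD, n = 3 each), at -1.33 (standard error 0.27, adjusted p = 0.000236). The 4 calls of members that fell were kept in 12 of 12 alternatives, and the lowest number of calls with 1 library left out was 4 (without AZT replicate 1 of 24h or replicate 1 or 2 of 72h). Over the same time 10 of 15 oocyte genes fell (median -1.47) and 20 of 23 MSP genes rose (median 3.22), and their part was not tested.

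With d4T, *spe-11*, *spe-18* and *spe-29* were lower at 72h than at 24h, where 13.1% of all genes fell. None was higher, where 10.2% rose (1 member above 0 at an unadjusted p under 0.05, DESeq2 1). Over the same time *spe-29* also fell with DMSO. Without the second d4T library of 24h, 9 of 25 members fell, where 23.8% of all genes did, and 2 rose, where 24.7% did. *spe-11* was then at -4.51 (standard error 0.77, adjusted p = 1.37e-05). With FLT, *spe-39*, *spe-41* and *spe-48* were higher at 72h than at 24h, where 16.2% of all genes rose. *spe-4*, *spe-11*, *spe-46*, *spe-55* and *spe-58* were lower, where 19.9% fell. With DMSO *spe-48* also rose and *spe-4* also fell over this time. *spe-41* went from 2.14 ± 0.959 to 12.9 ± 3.73 CPM (SD, n = 3 each), and *spe-58* from 86 to 3 counts over the group, a ratio of 23.1 (95% counting interval 7.63 to 114, exact). Without FLT replicate 3 of 72h, 4 of the 8 calls were made. All 15 oocyte and eggshell genes (median 2.14) and 7 of 10 genes of germline mitosis and meiosis rose with FLT over the same time, and 20 of 23 MSP genes (median -3.64) and 16 of 25 other sperm genes fell. With d4T 22 of the MSP genes fell (median -3.62). The part of these genes' cells was not tested.

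Whether the effect of an analogue differed between the times was tested directly. For AZT, the effect at 72h minus that at 24h was negative for *spe-5*, *spe-6*, *spe-39*, *spe-44* and *spe-48*, where 23.7% of all genes were called lower. It was positive for *spe-4*, *spe-29* and *spe-46*, where 29.3% were called higher. For FLT it was positive for *spe-41*, where 6.17% of all genes were called higher, and negative for *spe-58*, where 3.56% were called lower. For d4T no member was called, where 4.93% of all genes were called higher and 3.08% lower (0 members above 0 and 6 below 0 at an unadjusted p under 0.05, DESeq2 0 and 2). Without the second d4T library of 24h, *spe-11* (-4.37, adjusted p = 0.00205) and *spe-18* (-2.76, adjusted p = 0.00290) were called lower for d4T, where 6.1% of all genes were.

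**Figure D5:**
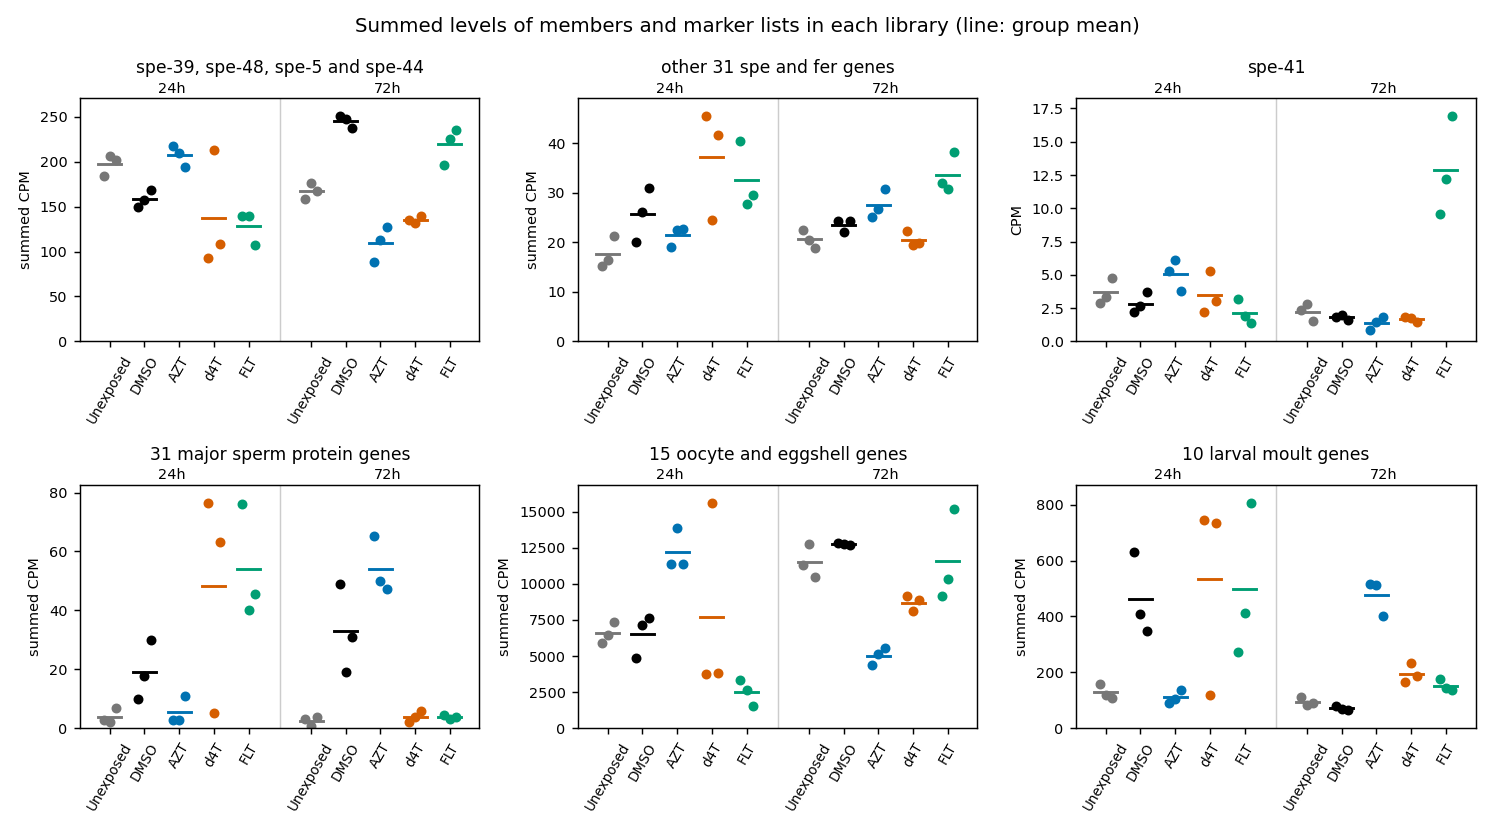
Summed CPM in each library of the 4 abundant members, of the other 31 members, of 31 MSP genes, of 15 oocyte and eggshell genes and of 10 larval moult genes, and CPM of *spe-41*, with a line at each group mean of 3 libraries. With AZT at 72h the abundant members lie at 88.3 to 127 CPM and the MSP genes at 47.1 to 65.1 CPM, and *spe-41* is highest in the FLT libraries of 72h.

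Set out by role, the changes against DMSO at 72h were not shared by all tested members of any class with more than 1 tested. The transcription class holds only *spe-44*, which fell with AZT (-1.40), and the paternal effect class only *spe-11*, which was not called. Of all genes tested, 27.2% rose and 21.6% fell with AZT, 5.82 and 5.86% with d4T and 4.52 and 3.54% with FLT. The classes are too small to be set against these shares, so that their counts are no result about roles. Of 7 members tested among the 9 that act in spermatocytes and the assembly of their organelles, 1 rose and 2 fell with AZT (median 0.04), and 2 fell with d4T (median -0.75). Of 5 tested among 9 members of sperm activation, 1 rose with AZT (median 1.02) and none was called with d4T or FLT. Of 4 tested among 8 members that act between sperm and oocyte (*spe-9*, *spe-36*, *spe-41* and *spe-51*), 1 rose with FLT (median -0.05) and none was called with AZT or d4T. *spe-9*, an EGF-repeat membrane protein gene, was at 0.0847 to 0.407 CPM over the group means. *spe-51*, which encodes a secreted immunoglobulin-like protein, was at 0.842, 1.12 and 0.979 CPM with d4T at 72h and 0.336, 0.381 and 0.744 CPM with DMSO, without overlap. It was at 0.99 on the log2 scale (adjusted p = 0.0851) and did not pass.

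Genes that set the sperm or oocyte fate of germ cells were also measured. Of 16, 3 rose and 8 fell with AZT at 72h (median -0.70), and their summed level was 781 to 1071 CPM with AZT and 1368 to 1472 CPM with DMSO. With FLT at 24h 1 rose and 5 fell (median -0.38). Of 25 other sperm genes tested, 1 rose and 2 fell with AZT at 72h (median 0.86), and none rose and 7 fell with d4T at 72h (median -1.93). Against unexposed nematodes of 72h, 17 of these genes rose and 1 fell with AZT (median 3.34), and 0 were called with d4T (median -0.14). With DMSO at 72h, 8 of them were higher than in unexposed nematodes and 0 lower (median 2.33). The sperm-enriched genes *cpb-1* and *zipt-7.1*, for an RNA-binding protein of spermatogenesis and a zinc transporter of sperm activation, fell with AZT at 72h by 1.66 and 1.64 on the log2 scale (standard errors 0.29 and 0.31, adjusted p = 4.21e-05 and 9.12e-05). Early embryo genes (3 of 6 rose, median 0.57) and adult muscle, yolk and intestine genes (5 of 6 rose, median 1.85) were among the other lists that moved with AZT against DMSO at 72h. Against unexposed nematodes of 72h, 3 of the 6 early embryo genes (median 0.65) and 1 of the 6 adult genes (median 0.53) rose with AZT. With DMSO at 72h, 4 of the 6 adult genes were lower than in unexposed nematodes (median -1.29).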

How the data were processed

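The data are raw counts of reads per gene for 30 whole-worm libraries, in 10 groups of 3 biological triplicates. To make these counts, the authors trimmed the reads with Trimmomatic (0.32), aligned them to WBcel235 with TopHat2 (2.0.8) and Bowtie2 (2.1.0) and counted them with HTSeq. The submitters' processing notes also name CASAVA (1.8.2). The strand setting of the counter is not given in the sources used here. The deposited entries that name no gene held 10.5 to 26.5% of the reads of a library and were left out. No 2 libraries held the same values. Conditions were taken from the sample labels.

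All 30 libraries were fitted together with edgeR 4.0.16 (limma 3.58.1, R 4.3.3). filterByExpr (at least 10 counts, and 15 in total) removed genes with few reads, library sizes carried TMM factors, and glmQLFTest was run on a robust quasi-likelihood fit. Within a comparison the Benjamini-Hochberg adjustment covered every gene tested, and an adjusted p under 0.01 was a call. The p-values measure the spread among the triplicates of 20 residual degrees of freedom. The fit was also run on counts simulated from its own means and spread, which cannot show that it holds for these data. CPM carry the TMM factors, and exonic lengths and positions came from Ensembl release 115 of the same build. Intervals of count ratios (95%, exact) and the limit of 3 counts for a count of 0 cover counting error only. Other settings tried were the scaling (relative log expression, or none with library totals), no filter on low counts, a block for the replicate number, DESeq2 1.42.0 in place of edgeR, a fit of only the groups compared, the unexposed control, and leaving out each library in turn.

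The members and the lists were chosen with earlier results of these data known. Every member may be named. Values per library and full statistics go to the 2 members of each role with the highest mean level and, in each comparison of an analogue with DMSO, to up to 3 members a direction, by adjusted p, among those called and reaching 1 CPM in a group. Other members given with such values were chosen after their values were seen. The 8 lists (MSP genes by name, other sperm genes, sex determination, oocyte and eggshell, germline mitosis and meiosis, early embryo, larval moult, adult soma) were written from general knowledge. The names *spe-7*, *spe-50*, *fer-14*, *trp-3* and *msd-3* matched no separate gene. Sequences of promoters or proteins were not used here. Some members are counted in the totals but not reported here by name.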

Additional observations from a re-analysis of the deposited data

Results flagged for a closer look

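For 10 pairs of a member and an analogue, the effect against DMSO at 72h differed from that at 24h by a direct test of the difference in edgeR. With AZT the difference in log2 fold change was 3.94 for *spe-4* (standard error 0.74, adjusted p = 7.49e-05), 2.24 for *spe-29* (adjusted p = 0.000434) and 2.49 for *spe-46* (adjusted p = 0.00447). It was -1.72 for *spe-5* (adjusted p = 2.34e-05), -1.44 for *spe-48* (adjusted p = 1.42e-05), -1.55 for *spe-39* (adjusted p = 0.000183), -1.80 for *spe-44* (adjusted p = 0.000207) and -1.67 for *spe-6* (adjusted p = 0.00392). With FLT it was 3.25 for *spe-41* (adjusted p = 6.81e-05) and -5.25 for *spe-58* (adjusted p = 0.00157), the latter from 3 counts over the FLT libraries of 72h. The DMSO libraries enter all of these values, and *spe-4* was at 1.95 ± 0.289 CPM with DMSO at 24h and 0.289 ± 0.123 CPM at 72h (SD, n = 3 each). In 18 alternatives each, the calls of *spe-4*, *spe-5*, *spe-29*, *spe-39*, *spe-44* and *spe-48* with AZT and both calls with FLT were kept. The call of *spe-6* was kept in 15 and that of *spe-46* in 12, lost for *spe-6* without AZT replicate 1 of 72h, with library totals and with the compared groups alone, and for *spe-46* without DMSO replicate 3 of 24h, DMSO replicate 2 or 3 of 72h, AZT replicate 1 or 2 of 24h or AZT replicate 3 of 72h (highest adjusted p 0.0246 and 0.0199).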

How the results depend on the processing

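The number of members called in a comparison changed by more than 1.5 times, or from or to 0, under the following settings, and the cause was not tested. Percentages in parentheses are the shares of all genes called higher and lower under that setting. They are not given for DESeq2. DESeq2 called 1 for AZT and 2 for FLT against DMSO at 24h, 3 for DMSO against unexposed nematodes at 24h, 10 for AZT against d4T and 1 for d4T against FLT at 24h. At 72h it called 2 for FLT against DMSO, 2 for DMSO against unexposed nematodes, 4 for d4T against FLT and 6 for AZT against unexposed nematodes. Between the times it called 3 in unexposed nematodes and 7 with d4T, and 2 for the difference between the d4T effects. The compared groups alone gave 1 for AZT against DMSO (13.2 and 18.9%) and 0 for AZT against d4T at 24h (0 and 0%). At 72h they gave 8 of 18 members tested for d4T (21.1 and 24.6%) and 3 of 14 for FLT (9.31 and 8.62%) against DMSO. For DMSO against unexposed nematodes at 72h they gave 6 of 18 (21.7 and 20.2%). For d4T against FLT at 72h they gave 4 of 14, where 1391 of 14063 genes were higher and 1614 lower. Between the times they gave 4 of 16 in unexposed nematodes (21.1 and 21.3%). With d4T between the times they gave 0 of 17, where 3 of 14487 genes rose and 0 fell. With unexposed nematodes as the control the counts at 24h were 7 for d4T (19.5 and 12.7%) and 7 for FLT (17.2 and 12.3%). At 72h they were 3 for AZT (18.6 and 13.2%) and 0 for d4T (0.0997 and 0.106%). Library totals gave 0 for DMSO against unexposed nematodes at 72h (3.71 and 10.4%). Between the times they gave 2 in unexposed nematodes (13.6 and 5.57%), 12 with AZT (38.4 and 9.7%) and 5 with d4T (19.6 and 8.44%). Without the filter on low counts the same comparison of the controls at 72h (3.5 and 2.91%) and unexposed nematodes between the times (4.78 and 5.44%) both gave 0. Library totals moved the median of all genes by 0.31 for AZT and 0.27 for d4T against DMSO at 72h, by 0.18 for FLT at 24h and by 0.13 for FLT at 72h, and relative log expression scaling moved it by -0.12 for AZT at 72h.

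Libraries with the same replicate number did not deviate together. Over 135 pairs the correlation of their deviations from the group means was -0.43 to 0.55 (median 0.01), and 19 exceeded 0.1, so that the numbers were not taken as pairs. With the replicate block, 2 members were called for DMSO against unexposed nematodes at 24h, where 8.44% of all genes rose and 3.13% fell. The other counts stayed within 1.5 times.

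With each library left out in turn, the calls ranged at 24h from 0 to 0 for AZT, 0 to 3 for d4T and 0 to 1 for FLT against DMSO, 0 to 2 for DMSO against unexposed nematodes, 0 to 14 for AZT against d4T, 2 to 9 for AZT against FLT and 0 to 2 for d4T against FLT. At 72h they ranged from 5 to 6 for AZT, 0 to 1 for d4T and 1 to 1 for FLT against DMSO, 0 to 0 for DMSO against unexposed nematodes, 0 to 2 for AZT against d4T, 4 to 6 for AZT against FLT and 1 to 3 for d4T against FLT. Between the times the ranges were 0 to 4 in unexposed nematodes, 2 to 4 with DMSO, 4 to 6 with AZT, 2 to 11 with d4T and 4 to 8 with FLT, and for the difference between the effects 7 to 9 with AZT, 0 to 2 with d4T and 2 to 2 with FLT. The shares of all genes called moved as well and are not given here for each range, so that the ranges are no result about the members. The 14 for AZT against d4T at 24h came without the second d4T library, for which the shares are given above. For DMSO against unexposed nematodes at 24h, 4.53% of all genes rose without unexposed replicate 2 of 24h, where 9.01% did with all libraries. Without the second d4T library, 14 members were called between d4T and unexposed nematodes at 24h. The latter, and DESeq2 against unexposed nematodes, were chosen after seeing the data. Over the named members and the comparisons with DMSO, 729 values kept their direction and side of the threshold, 18 passed it only under an alternative, 29 no longer passed, and none that was called turned its direction. Counts limit the scarce members most, since 12 of 35 could not be tested.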
